A study of Mus musculus with 15 samples.

Results

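The 80 protein-coding genes described here are those whose transcripts took a much larger share of the counts in mature mouse eggs (MII oocytes) than in fully grown immature oocytes (GV oocytes). They are 80 of 28785 genes with a count in any oocyte. Within each stage the counts of all oocytes were added up and scaled to CPM, counts per 1000000, with a single dominant feature that has no gene symbol left out of the totals. The ratio MII/GV of each gene was then divided by that of the median measured gene, a measured gene being at 5 CPM or more in the higher stage. Protein-coding genes with at least 20 CPM in MII and a relative ratio of at least 4, which is 2 on the log2 scale, were kept. Of the 87 genes that passed, 7 were left out by name (Crabp2, Nfu1, Cox6a2, Fadd, Prr5, Ppp1r11 and Cox6a1). Of the 80 that stayed, 71 have a gene name and 9 are predicted genes with Gm numbers. Because MII and GV values chose these genes, their ratios are given as a description and are not evidence that the stages differ.

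Single mouse oocytes were sequenced with MATQ-seq, a method that amplifies the total RNA of a single cell, to compare oocyte transcriptomes between stages of maturation. The MII group holds 6 mature eggs, which wait for fertilization in second meiotic metaphase. Their female donors received PMSG, the gonadotropin of pregnant mare serum, at 7 IU and, after roughly 48 h, human chorionic gonadotropin (hCG) at 7 IU. Eggs were recovered from the oviducts 20 h after hCG, and their cumulus cells were removed with hyaluronidase at 300 IU/mL. The GV group holds 9 fully grown oocytes with an intact germinal vesicle, the nucleus of meiotic prophase, from females given 7 IU of PMSG alone and killed 44 h later. All donors were thus primed with hormone, and the labels give an age of about 6 to 8 weeks where they describe the GV collection. Neither the strain nor the mouse behind any oocyte is named. The oocytes of a stage were therefore treated as cells of 1 sample, so no test was made, and values are set beside the spread between oocytes.

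An oocyte stops transcribing when it reaches full size, and meiotic maturation from GV to MII runs on messenger RNA stored during growth. During maturation many stored messages are degraded, while others are kept, and some are switched on for translation when their poly(A) tail is lengthened. A larger share of the counts in MII can therefore belong to a transcript that was lost less than others, and shares alone do not tell this from a gain in copies.

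Totals without the unnamed feature were 536101 to 1277878 counts per MII oocyte and 3275485 to 7103063 per GV oocyte. The feature itself took 15.7% to 61.2% of all counts in MII oocytes, 0 counts in GV1 to GV6 and 3.43% to 11.2% in GV7 to GV9. A count of 0, which allows up to 3 counts, sets a limit of 7.04e-05% in the shallowest of GV1 to GV6, and of 0.505 CPM over all MII oocytes. By their column headers the files form 3 sets, GV1 to GV6, GV7 to GV9 and all MII oocytes, so stage cannot be told apart from file set. Oocyte markers such as Gdf9 and the zona pellucida genes were detected throughout, with all 14 present and a sum of 8509 to 17914 CPM in MII oocytes and 7668 to 30261 CPM in GV oocytes. Cumulus and granulosa markers summed to 29.5 to 126 CPM in MII oocytes and 102 to 351 CPM in GV oocytes, and 7 of these 15, among them Inha, Amh and Foxl2, had 0 counts in MII. Highest of this list in MII were Nr5a2 and Cyp19a1, at 50.7 and 25.3 CPM over all MII oocytes. Over all GV oocytes they stood at 85.5 and 17.4 CPM. Of 9 oviduct markers with counts, 7 were at 0 in MII, Ovgp1 and Foxj1 included, and the list summed to 616 to 1492 CPM in MII oocytes and 541 to 1325 CPM in GV oocytes, with Cdh1 as its only measured gene. Theca and stroma markers reached 58.9 CPM in MII5 and 27.9 CPM in GV2 at most, and blood and immune markers 24.3 CPM in MII5 and 8.34 CPM in GV4. The only measured genes of these lists were Col1a1 and Cd68, at 6.90 and 8.76 CPM over all MII oocytes. Of 9 theca and stroma markers with counts, 6 were at 0 in MII, as were 2 of 6 blood and immune markers. Testis and sperm markers summed to 0 to 32.9 CPM in MII oocytes and 5.61 to 72.0 CPM in GV oocytes. No marker of any list is among the 80 genes, and the part of other cells in the results was not tested.

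Sequences bear on the results in 2 places. The 7 highest ratios belong to predicted genes of a repeat family, called satellite-repeat genes here. For 4 of them the first 60 bases follow, in lower case, with capitals where a base differs from Gm10718 (GENCODE M21 transcripts of the build GRCm38). These 4 were picked because their first 20 bases equal those of Gm10718, so likeness there was fixed by the choice. Gm10801, Gm10722 and Gm11168 start differently and are not shown, so the lines do not measure the likeness of all 7.
Gm10800: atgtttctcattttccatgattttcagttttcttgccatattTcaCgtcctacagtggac
Gm10717: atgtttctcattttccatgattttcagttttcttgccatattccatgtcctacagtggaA
Gm10719: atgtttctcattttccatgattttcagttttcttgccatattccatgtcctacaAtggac
Gm10718: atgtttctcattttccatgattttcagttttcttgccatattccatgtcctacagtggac
Against Gm10718, Gm10800 differs at 2 of these bases, and Gm10717 and Gm10719 at 1 each. Gm10800 and Gm10801 lie on chromosome 2 and the other 5 on chromosome 9. Gm10800 is annotated at chr2:98666547-98667301 in GRCm38, and Gm10722, the first of the chromosome 9 group, at chr9:3000922-3002330.

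The second place is the 3′ end, where the cytoplasmic polyadenylation element, a U-rich motif, marks messages whose tail is lengthened during maturation. The letters TTTTAT or TTTTAAT, as DNA on the strand of the messenger RNA only, were searched in the last 100 bases of the longest coding transcript. The motif was held by 6 genes and is shown here in capitals within 30 bases of the 3′ untranslated region.
Max: atataaataaaaacttaTTTTATccttgtc
Taf8: tctattTTTTATaatgggggagacttattg
Szrd1: taagcaTTTTATaaattgtattttaaatac
Rnf182: gtctattaaaTTTTATtatttctaaatgag
Gar1: ttaaataaaattTTTTATttccttaactta
Fam189a1: aaggtgTTTTAATaatgatcagtgttttaa
These were 6 of the 68 genes with a 3′ untranslated region of at least 100 bases, or 8.82%. Among 5120 protein-coding genes with such a region and at least 20 CPM in MII, 1067 or 20.8% held the motif. The polyadenylation signal AATAAA, which can overlap the end of TTTTAAT, stood in the same window of 70.6% of the 68 genes and of 66.5% of the 5120. A match is a run of letters and not a shown site, and the annotated end need not be the end used in oocytes.

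The relative log2 ratios of the 80 genes ran from 2.00 to 5.89 with a median of 2.34, against a median of −0.02 over 9515 measured protein-coding genes. Over all 10410 measured genes, 261 were at least 4-fold higher in MII on this scale, which is 2.51%, and 688 were at least 4-fold lower, which is 6.61%. With the 20 CPM minimum the share was 0.914% of the measured protein-coding genes, and the 80 are drawn from those 87. The scale matters, because the median measured gene itself had a log2 ratio MII/GV of −0.29 in CPM, of −0.98 with the feature kept in the totals, of −0.07 with TMM factors and of −0.02 with median-of-ratios factors. All 80 genes were higher in MII under each of these 4 scalings, with a lowest log2 ratio of 1.05 when the feature was kept. The rule all but fixes this, because a scaling shifts the ratios of all genes by the same amount. Summed over the stage, levels lay between 22.4 and 5911 CPM in MII (median 104) and between 1.74 and 1059 CPM in GV (median 22.8).

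All 80 genes together took 22196 to 51978 CPM in MII oocytes, with MII5 highest, against 3395 to 9844 CPM in GV oocytes, with GV4 highest. The 2 ranges did not overlap, as the choice of the genes all but fixes. Counts were found for 73 genes in all 6 MII oocytes and for 74 in all 9 GV oocytes. In MII, 42 genes reached 100 CPM and 10 reached 1000 CPM. Closest inside the ratio threshold were Cspg5 (2.01), Ppih (2.00) and Hmcn2 (2.00), and closest outside it were Fkbp1a (1.9957), Scamp3 (1.99) and Cabp1 (1.99). Closest inside the level threshold were Rhox1, Gm11985 and Gstp2, with 25.3, 23.2 and 22.4 CPM in MII. Closest outside it were Gm5617, Matn1 and Ufm1, with 19.4, 18.9 and 18.0 CPM.

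**Figure D1:**
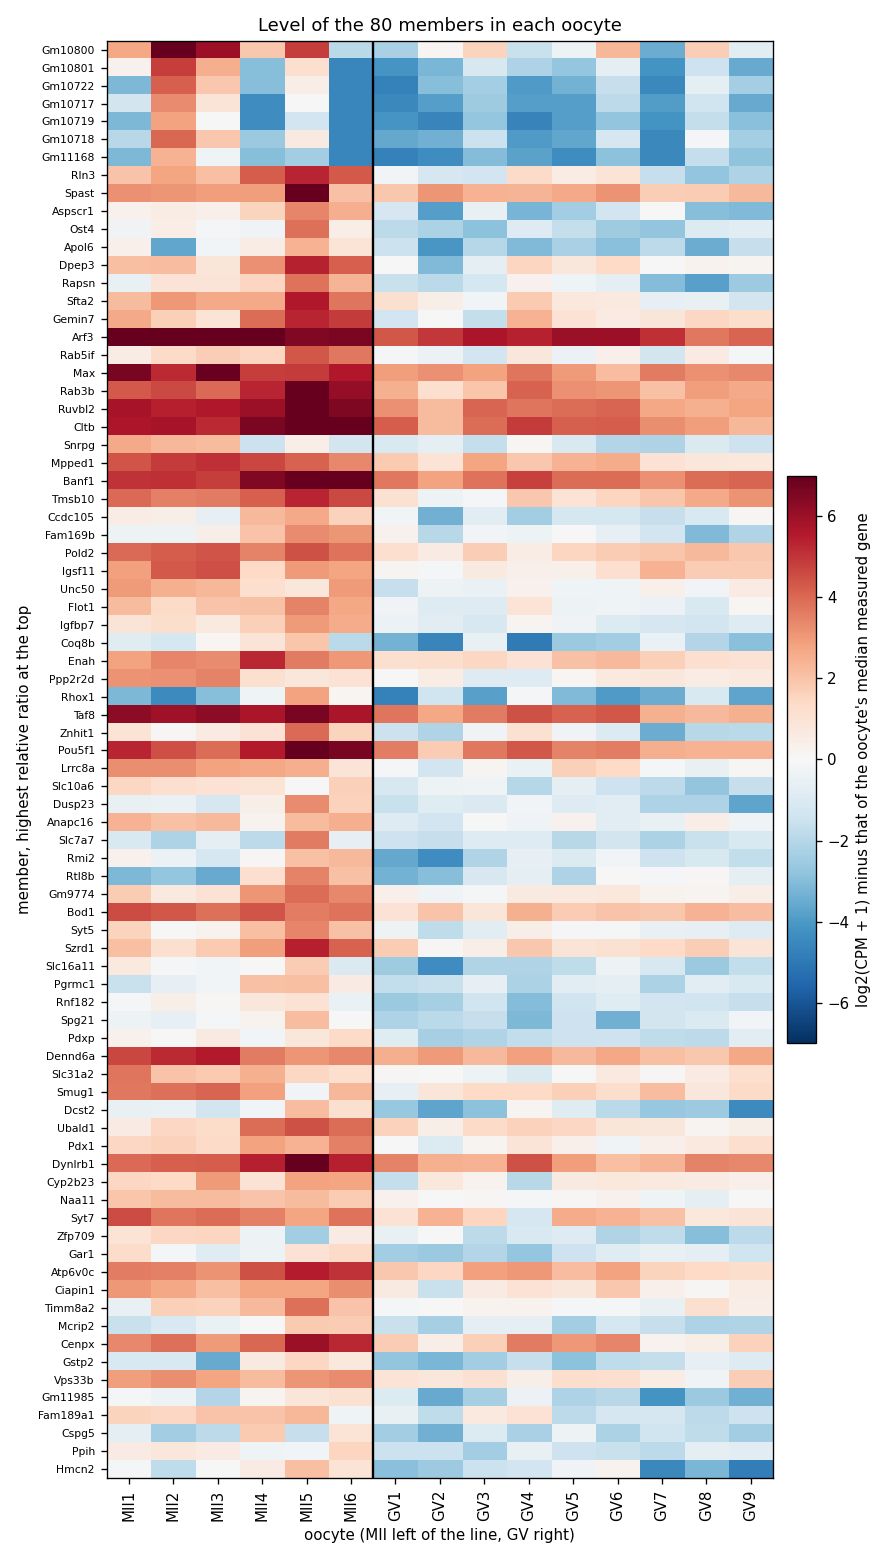
Level of each of the 80 genes (rows, highest relative ratio at the top) in each oocyte (columns, MII1 to MII6 left of the line and GV1 to GV9 right), as log2(CPM + 1) after subtracting the value of the median measured gene in the same oocyte, red above 0 and blue below. The satellite-repeat genes at the top are high in MII2, many rows are darkest in MII5, and GV4 is the highest GV oocyte for 32 of the 80 genes.

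The map of levels shows that the genes share the direction but not the oocytes that carry it. MII5 was the highest MII oocyte for 40 genes, MII3 and MII6 for 11 each, MII1 for 8, MII2 for 7 and MII4 for 3. Only 16 of the 80 genes had their lowest MII oocyte above their highest GV oocyte in CPM, against 0.683% of the measured protein-coding genes, a share to be read beside the fact that this contrast chose the genes. On levels relative to each oocyte's median measured gene the number was 31, against 1.53%. It was 22 with TMM factors, 24 with median-of-ratios factors, and 1 (Ruvbl2) with the feature kept in the totals, since the feature takes up to 61.2% of the counts in MII. Another 20 genes exceeded every GV oocyte in 5 of the 6 MII oocytes, and 27 did so in 3 or fewer.

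**Figure D2:**
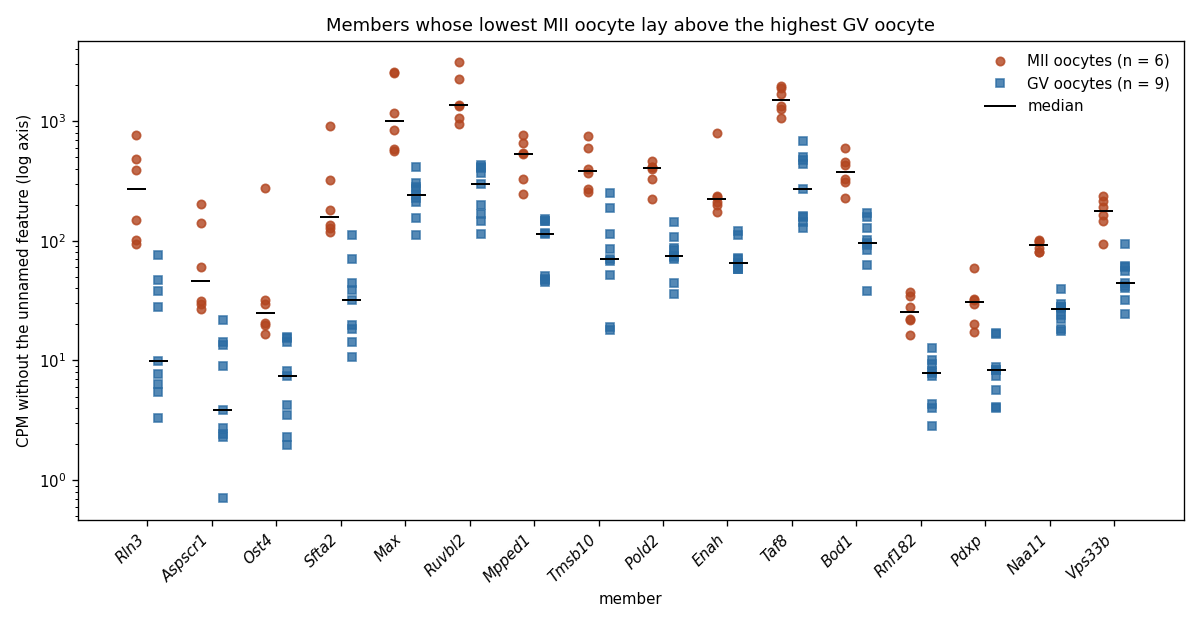
CPM without the unnamed feature (log axis) of the 16 genes whose lowest MII oocyte lay above the highest GV oocyte, with each of 6 MII oocytes (circles) left of each of 9 GV oocytes (squares) and the median of each stage as a bar. The gap is widest for Ruvbl2, at 951 CPM in the lowest MII oocyte and 430.2 CPM in the highest GV oocyte, and narrowest for Vps33b, at 94.1 CPM in the lowest MII oocyte and 93.1 CPM in the highest GV oocyte.

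In what follows, 3 values for a stage are the lowest, the median and the highest of its oocytes in CPM, over 6 MII and 9 GV oocytes. Ratios are log2 MII/GV from the summed counts, relative to the median measured gene. The number after ± is the spread, the SDs of the MII and GV oocytes combined on the scale of the map of levels, and it is not an error of a mean. CPM are not divided by transcript length, so they are compared between oocytes and not between genes. The genes were grouped by textbook role after they were known, so the groups are an aid to reading and were not tested.

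Vesicle traffic was the role of 12 genes, and 2 of them, Aspscr1 and Vps33b, had MII and GV oocytes fully apart in CPM. On levels relative to each oocyte's median measured gene, 9 of the 12 did. Arf3, an ARF family GTPase that recruits coats at the Golgi, stood at 1711, 6384 and 9262 CPM in MII oocytes, against 386, 776 and 1796 CPM in GV oocytes. Its ratio was 2.77 ± 1.30, and the sums were 5911 CPM in MII (exact Poisson 95% interval 5849 to 5973), against 1059 CPM in GV (1049 to 1069). MII1 to MII3 were highest, between 8144 and 9262 CPM, while MII5 at 1711 CPM lay just below GV5 at 1796 CPM. Cltb, a light chain of the clathrin coat, stood at 810.1, 1641 and 4594 CPM in MII oocytes, against 114, 326 and 931 CPM in GV oocytes, and here MII5 and MII6 were the high oocytes. Rab3b, a GTPase of regulated secretion, had 333, 690.0 and 3258 CPM in MII oocytes, against 55.3, 181 and 544 CPM in GV oocytes, with 3 MII oocytes above all GV oocytes. Syt5 and Syt7 are synaptotagmins, a family of calcium sensors for vesicle fusion. Syt7 had 127, 307 and 601 CPM in MII oocytes, against 12.9, 64.1 and 160.3 CPM in GV oocytes, with MII5 alone inside the GV range. Syt5 had 20.3, 81.6 and 199.8 CPM in MII oocytes, against 6.10, 19.3 and 40.2 CPM in GV oocytes, and 2 MII oocytes lay inside the GV range.

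Other genes of this group act further along the endosomal route. Vps33b, which helps endosomes and lysosomes fuse, stood at 94.1, 176 and 238 CPM in MII oocytes, against 24.2, 44.3 and 93.1 CPM in GV oocytes. Its lowest MII oocyte (MII4) lay just above its highest GV oocyte (GV9), so the groups did not overlap, at a ratio of 2.05 ± 0.70. Aspscr1, a UBX-domain protein that tethers glucose transporter vesicles in muscle and fat, had 26.8, 45.9 and 202 CPM in MII oocytes, against 0.704, 3.89 and 21.7 CPM in GV oocytes. MII5 and MII6 carried most of it, and the other 4 MII oocytes lay close together between 26.8 and 60.4 CPM, above every GV oocyte. Atp6v0c, a membrane subunit of the proton pump that acidifies vesicles, had 191, 377 and 863 CPM in MII oocytes, against 64.8, 121 and 257 CPM in GV oocytes, where MII2 and MII3 lay inside the GV range. Dennd6a, an exchange factor for Rab GTPases, had 159, 443 and 1019 CPM in MII oocytes, against 96.7, 162 and 225 CPM in GV oocytes, and its 3 high oocytes were MII1 to MII3. Unc50, Flot1 and Rab5if had ratios of 2.53, 2.53 and 2.75, and each was above every GV oocyte in 5 of the 6 MII oocytes.

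Secreted and cell-surface proteins were encoded by 7 genes. Rln3, which encodes the neuropeptide relaxin-3, had the highest ratio of any gene with a name, 3.87 ± 1.98. It stood at 93.3, 270.5 and 768 CPM in MII oocytes, against 3.30, 9.85 and 76.6 CPM in GV oocytes, so the stages did not overlap. MII4 to MII6 were the high oocytes, and among GV oocytes GV4 and GV6 were highest. The GV7 to GV9 values of 6.38, 3.30 and 5.50 CPM were below those of all GV1 to GV6 oocytes, the lowest of which was GV3 at 7.74 CPM, and the ratio was 3.49 with GV1 to GV6 as the comparison but 6.17 with GV7 to GV9. Sfta2, a small secreted protein first described in lung, had 118, 157 and 908 CPM in MII oocytes, against 10.7, 31.9 and 111 CPM in GV oocytes, again without overlap. MII5 stood far above the other MII oocytes, and without it the ratio was 2.34 in place of 2.98. Dpep3, a membrane dipeptidase, had 38.0, 148 and 783 CPM in MII oocytes, against 1.88, 31.4 and 88.3 CPM in GV oocytes, and MII3 was the MII oocyte inside the GV range. Igfbp7, which binds insulin-like growth factors, had 34.5, 57.6 and 149 CPM in MII oocytes, against 9.01, 13.4 and 34.7 CPM in GV oocytes, with MII3 just inside the GV range. Igsf11, an adhesion molecule of the immunoglobulin family, had ratios of 3.09 when set against GV1 to GV6 and of 1.48 when set against GV7 to GV9, since GV7 to GV9 lay at 98.0 to 119.9 CPM and GV1 to GV6 at 21.1 to 55.1 CPM. Cspg5 and Hmcn2, a neural proteoglycan and an extracellular matrix protein, were at the edge of the rule and had medians of 10.1 and 26.1 CPM in MII oocytes, against 5.31 and 3.33 CPM in GV oocytes.

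The cytoskeleton and chromosome segregation accounted for 9 genes, of which Enah, Tmsb10 and Bod1 had fully separate ranges. Bod1, which helps chromosomes attach to both spindle poles, stood at 228, 377 and 595 CPM in MII oocytes, against 38.2, 96.4 and 170.4 CPM in GV oocytes. Its ratio was 2.25 ± 0.70. Tmsb10, a thymosin that binds actin monomers, had 253, 384 and 751 CPM in MII oocytes, against 18.1, 69.7 and 249 CPM in GV oocytes, and its ratio of 2.58 became 3.15 when GV1 to GV6 were used alone and 1.50 when GV7 to GV9 were. Enah, which extends actin filaments, had 175, 222 and 787 CPM in MII oocytes, against 57.6, 65.5 and 120.2 CPM in GV oocytes, where MII4 stood at 787 CPM and the other 5 MII oocytes at 175 to 236 CPM. Without MII4 its ratio was 1.76, below the threshold. Dynlrb1, a light chain of the dynein motor, had 395, 657 and 2576 CPM in MII oocytes, against 107, 202 and 667 CPM in GV oocytes, and Cenpx, a small protein of kinetochores and of the Fanconi repair complex, had 171, 322 and 1224 CPM in MII oocytes, against 25.5, 86.4 and 383 CPM in GV oocytes. Both had MII5 at the top and overlapped the GV range.

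The other genes of this group differed in which oocytes were high. Ppp2r2d, a regulatory subunit of the phosphatase PP2A that acts at mitotic exit, had 32.0, 125 and 239 CPM in MII oocytes, against 10.6, 34.7 and 45.2 CPM in GV oocytes. MII1 to MII3 lay between 201.9 and 239 CPM, and MII4 to MII6, between 32.0 and 47.2 CPM, overlapped the GV oocytes. Anapc16, a subunit of the anaphase-promoting complex, had 23.5, 97.2 and 139 CPM in MII oocytes, against 8.91, 21.1 and 40.5 CPM in GV oocytes, with MII4 alone inside the GV range. Rapsn, which clusters acetylcholine receptors at the muscle synapse, had 16.8, 49.4 and 268 CPM in MII oocytes, against 1.10, 8.17 and 37.7 CPM in GV oocytes, and 5 of the 6 MII oocytes lay above every GV oocyte. Spast, which encodes the microtubule-severing ATPase spastin, is a case of its own. It stood at 10515 CPM in MII5, at 97.7 to 229 CPM in the other 5 MII oocytes and at 74.7 to 218 CPM in GV oocytes. MII5 gave 90.7% of its MII counts, and without MII5 its ratio was 0.41 in place of 3.66, and the other MII oocytes overlapped the GV range.

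**Figure D3:**
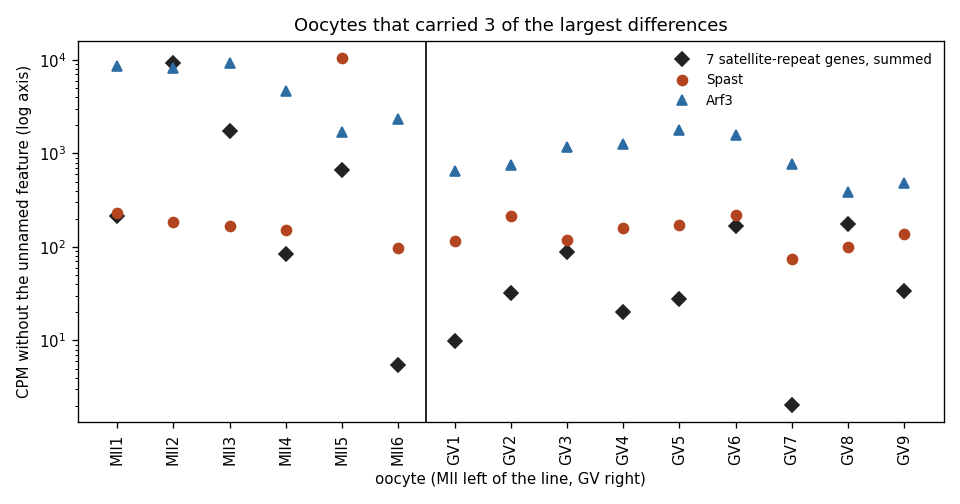
CPM without the unnamed feature (log axis) in each oocyte, MII1 to MII6 left of the line and GV1 to GV9 right, for the 7 satellite-repeat genes summed (diamonds), Spast (circles) and Arf3 (triangles). Spast stands apart in MII5 alone at 10515 CPM, the satellite-repeat genes peak in MII2 at 9387 CPM, and Arf3 is at 1711 CPM or more in every MII oocyte, with its lowest MII value in MII5.

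Transcription and chromatin proteins were encoded by 9 genes, and Max, Taf8 and Ruvbl2 had separate ranges. Max, the partner through which Myc proteins bind DNA, stood at 557, 1004 and 2582 CPM in MII oocytes, against 111, 242 and 413 CPM in GV oocytes. Its 2 highest oocytes were MII1 and MII3, and without MII5 its ratio was 2.82 in place of 2.72. Taf8, a subunit of the general factor TFIID, had 1063, 1497 and 1957 CPM in MII oocytes, against 128, 269 and 682 CPM in GV oocytes. The MII oocytes lay close together, and among GV oocytes GV7 to GV9 lay low, at 128 to 162 CPM, beside GV2 at 158 CPM. Max and Taf8 are also 2 of the 6 genes whose 3′ ends are printed above with the TTTTAT motif. Ruvbl2, an ATPase of chromatin remodelling and protein assembly complexes, had 951, 1349 and 3083 CPM in MII oocytes, against 114, 298 and 430.2 CPM in GV oocytes, at sums of 1568 CPM in MII (exact Poisson 95% interval 1536 to 1600.1), against 302 CPM in GV (297 to 307).

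Pou5f1, which encodes the pluripotency factor Oct4 and is a known maternal transcript, had 328, 979.6 and 2739 CPM in MII oocytes, against 83.0, 277 and 637 CPM in GV oocytes. MII3 and MII2 were low among MII oocytes at 328 and 512 CPM, inside the GV range, and its ratio of 2.34 was 2.01 without MII5. Banf1, a DNA-bridging protein needed to re-form the nuclear envelope, had 613, 1349 and 5876 CPM in MII oocytes, against 171, 403 and 859.7 CPM in GV oocytes, with MII4 to MII6 well above the rest. Pdx1, a homeobox factor known from pancreas, had 53.5, 85.1 and 274 CPM in MII oocytes, against 11.5, 31.6 and 65.0 CPM in GV oocytes, and 5 of the 6 MII oocytes lay above every GV oocyte. Znhit1, a subunit of a histone-exchange complex, and Rhox1, an X-linked reproductive homeobox gene, had most of their counts in MII5. It gave 52.9% of the MII counts of Znhit1 and 69.3% of those of Rhox1, and without it their ratios were 1.44 and 0.87. Zfp709, a zinc finger gene, went the other way, with 2.56 CPM in MII5 and 14.9 to 59.6 CPM in the other MII oocytes, against 2.75 to 23.5 CPM in GV oocytes.

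DNA replication and repair was the role of 3 genes, none of which was highest in MII5. Pold2, a subunit of DNA polymerase delta, stood at 224, 404 and 465 CPM in MII oocytes, against 35.6, 74.2 and 144 CPM in GV oocytes. Its MII oocytes lay close together and above all GV oocytes, at a ratio of 2.55 ± 0.73. Smug1, which removes uracil from DNA, had 15.4, 235 and 364 CPM in MII oocytes, against 21.0, 57.3 and 102 CPM in GV oocytes, with MII5 as the low oocyte. Rmi2, of the complex that dissolves recombination intermediates, had 8.64, 25.5 and 113 CPM in MII oocytes, against 0.235, 7.63 and 21.0 CPM in GV oocytes, and 4 MII oocytes lay above every GV oocyte. Among 4 genes of RNA processing, Gemin7, a part of the SMN complex that loads Sm rings on spliceosomal RNA, had 41.5, 233 and 763 CPM in MII oocytes, against 5.77, 39.3 and 164 CPM in GV oocytes. Snrpg, a protein of that ring, had 6.28, 63.3 and 157 CPM in MII oocytes, against 4.08, 11.7 and 32.2 CPM in GV oocytes. For Gemin7 the high oocytes were MII4 to MII6 and for Snrpg MII1 to MII3, so these functionally linked transcripts did not peak in the same eggs. Gar1, of the complexes that guide pseudouridine formation, and Ppih, a cyclophilin of the spliceosome, had ratios of 2.07 and 2.00.

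Enzymes and proteins of the endoplasmic reticulum and mitochondria made up 12 genes. Naa11, a catalytic subunit of the main amino-terminal acetyltransferase, had the tightest values of all 80. It stood at 80.0, 92.0 and 101 CPM in MII oocytes, against 17.6, 26.9 and 39.3 CPM in GV oocytes, with a ratio of 2.08 ± 0.34, which is the smallest spread among the 80 genes. Mpped1, a predicted metallophosphoesterase, had 244, 533 and 764 CPM in MII oocytes, against 45.2, 113 and 151 CPM in GV oocytes, with MII3 highest. Ost4, the smallest subunit of the oligosaccharyltransferase that glycosylates proteins, had 16.5, 25.1 and 277 CPM in MII oocytes, against 1.97, 7.44 and 15.6 CPM in GV oocytes, where MII5 held 277 CPM and the other MII oocytes 16.5 to 31.8 CPM. Without MII5 its ratio was 1.92 in place of 3.20. Pdxp, which removes phosphate from pyridoxal phosphate and cofilin, had 17.3, 30.9 and 59.3 CPM in MII oocytes, against 3.99, 8.25 and 16.9 CPM in GV oocytes, and Rnf182, a ubiquitin ligase, had 16.5, 25.3 and 37.1 CPM in MII oocytes, against 2.84, 7.91 and 12.8 CPM in GV oocytes. These 5 genes had separate ranges. Ciapin1, needed for iron-sulfur proteins of the cytosol, had 93.3, 143 and 228 CPM in MII oocytes, against 7.50, 39.7 and 93.6 CPM in GV oocytes, with MII3 just inside the GV range. The remaining 6 (Timm8a2, Pgrmc1, Coq8b, Dusp23, Cyp2b23 and Gstp2) had ratios from 2.05 to 2.46 and overlapped the GV range.

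Membrane transporters numbered 5, and none had separate ranges in CPM. Slc10a6, a carrier of sulfated steroids, had 17.9, 46.2 and 76.8 CPM in MII oocytes, against 3.30, 8.55 and 18.1 CPM in GV oocytes, with MII5 as the lowest MII oocyte. Lrrc8a, the core subunit of the volume-regulated anion channel, had 43.9, 143 and 241 CPM in MII oocytes, against 8.68, 24.4 and 83.9 CPM in GV oocytes, with MII6 as the lowest. Slc31a2, a copper transporter, had 49.9, 82.2 and 339 CPM in MII oocytes, against 14.4, 26.4 and 65.0 CPM in GV oocytes, with MII1 far above the rest. Slc7a7, a carrier of basic amino acids, stood at 238 CPM in MII5, at 3.91 to 15.4 CPM in the other MII oocytes and at 3.83 to 15.4 CPM in GV oocytes. Without MII5 its ratio was 0.19 in place of 2.32. Slc16a11, a monocarboxylate carrier, had a ratio of 2.20, and 1.82 without MII5. The last 12 genes fall in no role group and had ratios from 2.03 to 3.17, with none separate. Apol6, of the apolipoprotein L family, led them with a ratio of 3.17 ± 2.21 and 101 CPM in MII5, against at most 10.6 CPM in GV oocytes, and 9 of the 12 were highest in MII5. Ubald1, whose function is little known, had medians of 185 CPM in MII oocytes and 43.7 CPM in GV oocytes, with MII4 to MII6 above every GV oocyte. Szrd1, also little known, had medians of 133 CPM in MII oocytes and 52.4 CPM in GV oocytes, and again MII4 to MII6 were the high oocytes. Fam189a1, which encodes a membrane protein, had 18.7, 76.4 and 93.5 CPM in MII oocytes, against 6.33, 9.46 and 62.2 CPM in GV oocytes, and here MII6 was the low MII oocyte. The other 8 (Ccdc105, Fam169b, Rtl8b, Gm9774, Mcrip2, Dcst2, Gm11985 and Spg21) had ratios from 2.04 to 2.58. Of these, Dcst2 is known in mice from sperm, and Rtl8b derives from a retrotransposon.

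The 7 satellite-repeat genes had ratios from 4.36 to 5.89, above every other of the 80 genes. Their transcripts are 504 to 684 bases long and entirely coding in the annotation. Set against themselves, they matched best at a period of 225 to 237 bases, 234 in 4 of them. At that period 52.7% (Gm10801) to 65.2% (Gm10722) of the bases were the same. Any sequence has a best period within the range searched, so the match is loose. Pairs of them shared 45.5% to 80.9% of their 12-base words, and 88 words of 20 bases occurred in all 7. Such a period and such families are known from mouse pericentromeric satellite DNA, which is background here and not a result. Summed over the 7, the oocytes held 213, 9387, 1758, 83.2, 665 and 5.49 CPM from MII1 to MII6, against 2.04 to 177 CPM in GV oocytes. MII2 thus gave 81.2% of their 14775 MII counts, MII6 was lower than every GV oocyte but GV7, and the stages overlapped. Gm10800, with most of the counts, stood at 5.49, 353 and 7508 CPM in MII oocytes, against 1.02, 19.8 and 124 CPM in GV oocytes. The 7 genes are so alike that reads may be shared among them and with 4 further coding genes of the same kind (Gm10720, Gm10715, Gm10721 and Gm17535), so the split of counts between them is uncertain, and they are best read as 1 signal.

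The dependence of the 80 genes on MII5 was measured by leaving it out. At 4-fold or more stayed 55 of 80 genes without MII5, and 41 of 80 without MII5 and MII6, while 80 of 80 and 79 of 80 kept a ratio above 0. MII5 was the highest MII oocyte for 50.0% of the 80 genes, against 20.1% of 5292 protein-coding genes with at least 20 CPM in MII. In 16 of the 80 genes, or 20.0%, a single oocyte gave more than 50% of the MII counts, against 1.85% of the same 5292 genes. That oocyte was MII5 for Spast, Ost4, Rhox1, Znhit1, Dusp23, Slc7a7 and Rtl8b alone. It was MII2 for the 7 satellite-repeat genes, best read as 1 signal, and MII4 for Enah and Cspg5. The summed MII counts also chose the 80 genes, so these shares are a description. MII5 also had the fewest genes listed, 9617 against 11303 to 13873 in the other MII oocytes and 15062 to 18853 in GV oocytes. Theca and stroma markers and blood and immune markers were also highest in MII5 among MII oocytes, at 58.9 and 24.3 CPM in sum. Col1a1 and Cd68 were the only measured genes of these lists. The part of these markers in the result was not tested. With the median of CPM over the oocytes of a stage in place of sums, 52 of the 80 kept a relative ratio of 4 or more.

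**Figure D4:**
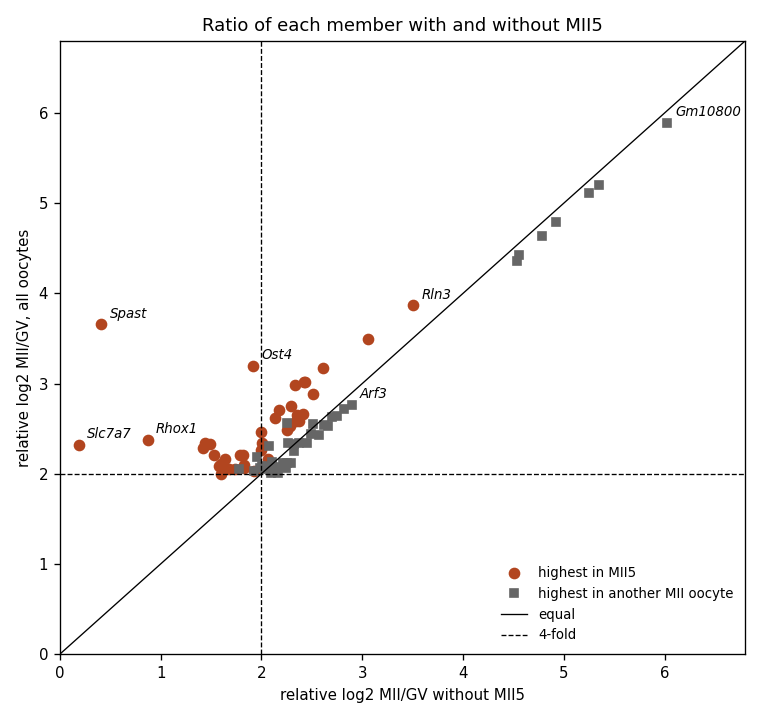
Relative log2 ratio MII/GV of each of the 80 genes from all oocytes (vertical axis) against that without MII5 (horizontal axis), with circles for the 40 genes highest in MII5, squares for the other 40, a solid line where both are equal and dashed lines at 4-fold. Spast, Slc7a7 and Rhox1 lie far left of the line at 0.41, 0.19 and 0.87 without MII5, while Rln3 and Arf3 stay beyond 4-fold.

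All 80 genes had a relative log2 ratio above 0 against each set of GV oocytes alone. The rule all but fixes this, because both sets were part of the GV sums that chose the genes. A relative ratio of 4 or more was reached by 64 genes with GV1 to GV6 as the comparison, by 62 with GV7 to GV9 and by 46 with both. The sets of GV files also differed from each other. Of the 80 genes, 11 were 2-fold or more higher in GV7 to GV9 than in GV1 to GV6, where 14.4% of the measured protein-coding genes were, and 19 were 2-fold or more lower, where 19.7% were. As shares these 11 and 19 genes are 13.8% and 23.8% of the 80, close to the background.

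The 80 genes had short transcripts. Their longest coding transcript had a median length of 1822.5 bases, against 3607 bases in 5285 protein-coding genes with at least 20 CPM in MII. When those genes are ordered by length and divided into 5 equal parts, 48 of the 80 fall in the shortest, from 297 to 2108 bases, and 13, 8, 5 and 6 in the next 4. Without the satellite-repeat genes the shortest part holds 41 of 73. The median relative ratio over all genes of each part ran the same way, from 0.44 in the shortest to 0.01 in the longest. Transcripts of the 80 genes also had fewer exons, with a median of 5 against 11, and a GC content with a median of 53.7% against 50.2%.

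**Figure D5:**
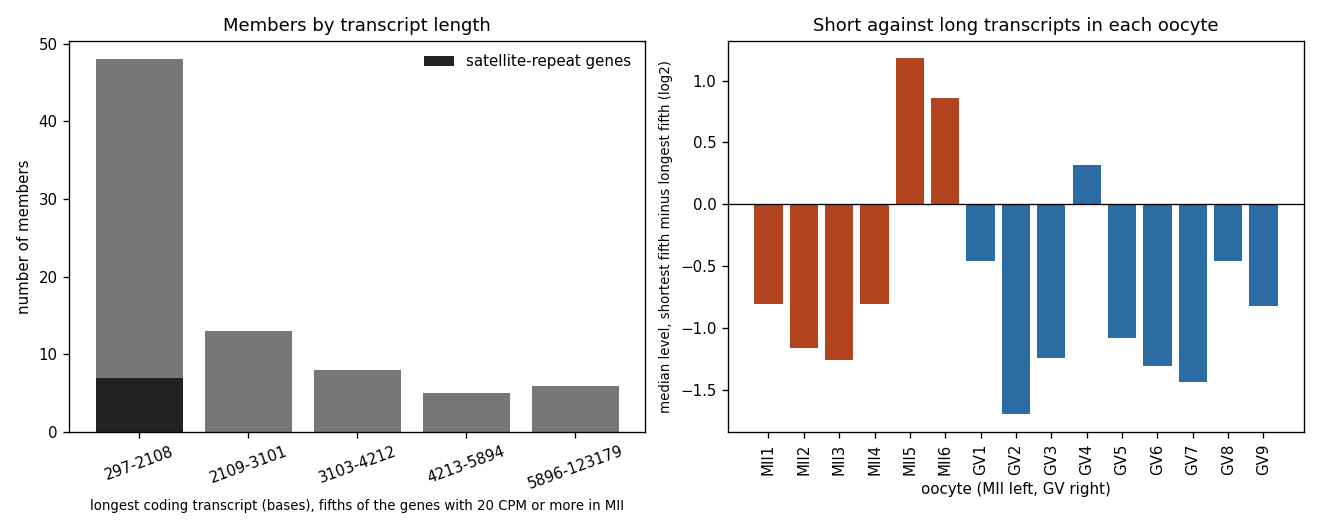
Left, number of the 80 genes in each of 5 equal parts of the protein-coding genes with at least 20 CPM in MII, ordered by the length of the longest coding transcript in bases, with the satellite-repeat genes in black. Right, difference in each oocyte (red MII, blue GV) between the median log2 level of the shortest and of the longest part, which is above 0 in MII5, MII6 and GV4 alone.

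Length separated oocytes within a stage as well, as the bars for single oocytes show. The median level of the shortest part minus that of the longest was 1.18 in MII5 and 0.86 in MII6 on the log2 scale, between −0.80 and −1.26 in the other 4 MII oocytes, 0.32 in GV4 and between −0.46 and −1.70 in the other 8 GV oocytes. Across genes, Spearman's rho between level and length was −0.22 in MII5, −0.18 in MII6 and −0.06 in GV4, and 0.11 to 0.32 in the other oocytes (5285 genes each, which share a library and are not independent). MII5 and GV4 are also the MII and the GV oocyte that stood highest for the greatest number of the 80 genes. The 40 genes highest in MII5 had a median length of 1652 bases, and the 19 highest in MII1 to MII3, satellite-repeat genes left out, a median of 2793 bases. That pooled value hides a difference, with medians of 1617 bases for the 8 genes highest in MII1 and 3424 bases for the 11 highest in MII3. For the 11 genes highest in MII6 the median was 2124 bases. Without MII5 and MII6 the rule kept 56 genes, and 27 of them or 48.2% lay in the shortest of 5 parts. Those parts were made anew from the genes with at least 20 CPM in MII1 to MII4, so they differ from the parts above. The shortest part above held 60.0% of the 80 genes, and 22 of the 41 that stayed at 4-fold or more without MII5 and MII6. The part of transcript length in the ratios was not tested.

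The families and pathways of the leading genes were set beside them from gene lists, and most of their other genes lay within 4-fold. Of 6 measured SMN complex genes only Gemin7 was at least 4-fold higher, with a list median of 0.86 on the relative log2 scale, and Smn1 stood at 1.08 and Gemin5 at 0.19. Of 12 Sm and LSm genes only Snrpg was, with a list median of 0.17, and Snrpd2 stood at −1.83. Of 13 UBX-domain and p97 genes only Aspscr1 was, with a list median of −0.27. Among 7 genes of the neuromuscular junction Rapsn and Chrnb1 were, Chrnb1 at 2.04 but at 5.22 CPM in MII, and Lrp4 was at least 4-fold lower at −2.77. Relaxin and apolipoprotein L genes had only Rln3 and Apol6 measured, and of 2 membrane dipeptidases Dpep2 stood at 1.56 beside Dpep3 at 3.02. Abca3, the other measured surfactant gene, stood at −1.23. The background for these counts is 2.51% of measured genes at least 4-fold higher and 6.61% at least 4-fold lower.

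Lists of other processes held none of the 80 genes. Of 16 transcripts known to be translated during maturation none was 4-fold apart in either direction, with a median of −0.18, Btg4 highest at 0.95 and Ccnb1 lowest at −1.10. Of 7 measured p53 targets and 2 genes of early embryonic activation none was 4-fold apart either, and their medians were 0.23 and −0.95. Of 4 measured immediate early genes Egr3 was at 0 counts in MII and the other 3 were within 4-fold, with a median of 0.06 over the 4.

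Some of the 80 values may include reads of other genes. Near copies, at 90% identity or more over at least 50% of the transcript, exist for 13 genes, the 7 satellite-repeat genes among them. Gm9774 is 99.8% identical to Adrm1, which stood at 773 CPM in MII and 319 CPM in GV, so its counts are uncertain. Gstp2 resembles Gstp1, Rtl8b resembles Rtl8a, and Tmsb10 resembles Gm9844, each at 98.2% identity or more. Exons of 11 genes, or 13.8%, overlap a measured gene, in each case on the other strand, against 11.2% of the 5285 genes with an annotated transcript, where either strand was counted, and the counting is not stated to use strand. Among them, Ost4 shares 677 bases with Agbl5, Rab5if 731 bases with Sla2, and Banf1 428 bases with Eif1ad. These 3 partners had relative ratios of 0.60, 0.32 and −0.05, lower than those of the genes they overlap. On the chromosomes the 80 genes were spread over 19, with 9 on chromosome 7. Besides the satellite-repeat genes, Aspscr1 and Cenpx, 1494 bases apart on chromosome 11 in GRCm38, were the only neighbours found next to each other.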

How the data were processed

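Each deposited file holds whole-number counts of a single oocyte by Ensembl gene ID. The header of the counts begins with exon in the MII files, with Y in GV1 to GV6 and with E in GV7 to GV9. What these headers stand for is not given, so only the MII headers name exons. The submitters' processing notes list cutadapt 4.0 and STAR 2.7.10a, with GRCm39 as the build. How reads were counted, with which annotation and with what use of strand, are points not given in the sources used here, and no molecular identifiers are named, so intervals cover counting error only. Genes that a file does not list were given 0 counts.

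Samples were grouped by the labelled stage. Symbols, biotypes and transcripts came from GENCODE M21 (GRCm38), and 28444 of 28784 gene IDs had a symbol. The rule that chose the 80 genes adds 0.5 to each summed count. The spread between oocytes uses log2(CPM + 1). In 51 pairs of oocytes of the same stage, the lowest chi-square per degree of freedom between counts was 7.26, above sampling noise. With no mouse named, no p-value was made. The 80 genes and all gene lists were chosen with earlier results of these data known.

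Named genes were those with the 12 highest ratios, the 12 highest CPM in MII, up to 15 with separate ranges, those at the thresholds, those in gene lists, and those next to or overlapping another gene. Predicted genes were to be counted and not named under the first 3 of these. The satellite-repeat genes, and further genes of each role, were named after their values were seen. Alternatives were other scalings (edgeR 4.0.16 TMM, DESeq2 1.42.0 median of ratios, totals with the feature or without mitochondrial genes), means or medians of CPM, thinning to 536101 counts, other minimums and added counts, each set of GV files, and oocytes left out. Near copies were found with blastn 2.17.0. The rule was tried on simulated data in which some genes were raised by the same factor in every MII oocyte. Those data held no genes high in a single oocyte, no length differences and no file sets, so they do not show how the rule behaves with these. Scripts ran in R 4.3.3 and Python 3.11.15 (numpy 2.4.6, pandas 2.3.3, scipy 1.17.1, matplotlib 3.10.9).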

Additional observations from a re-analysis of the deposited data

Results flagged for a closer look

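In 11 of 160 sets of values (80 genes in MII and in GV oocytes), 1 oocyte stood apart from the rest of its stage by Dixon's criterion. Its nominal rate is about 1 in 20, or 8, but the rule chose the genes by these values, so that rate is no fair background. The share over all measured genes was not computed. In MII oocytes, 4 of the 11 were high values of MII5, in Spast, Ost4, Slc7a7 and Spg21. Without MII5 their relative log2 ratios were 0.41, 1.92, 0.19 and 1.64, below the threshold of 2. Spast was at 10515 CPM in MII5 and at most 229 CPM in the other MII oocytes. Ost4 was at 277 CPM in MII5 and at most 31.8 CPM in the others. Slc7a7 was at 238 CPM in MII5 and at most 15.4 CPM in the others. Spg21 was at 83.2 CPM in MII5 and at most 23.5 CPM in the others. MII5 was low for Smug1, at 15.4 CPM, where the others had at least 119 CPM. MII4 was high for Enah at 787 CPM, where the others had at most 236 CPM, and low for Anapc16 at 23.5 CPM, where the others had at least 85.8 CPM. MII6 was low for Fam189a1 at 18.7 CPM, where the others had at least 59.5 CPM. In GV oocytes all were low values. GV2 had 0.235 CPM of Slc16a11 and 7.50 CPM of Ciapin1, and GV4 had 12.9 CPM of Syt7.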

How the results depend on the processing

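No paired analysis was possible because the replicate numbers of the stages only count oocytes and no test was made. The rule kept 80 genes. It kept 366 with no CPM minimum and 10 counts in place of it, and 348 with GV7 to GV9 as the only GV oocytes, 62 of them among the 80. Leaving out 1 oocyte gave 61 genes (without MII5) to 116 (without MII3), and under the other alternatives the number stayed within 1.5 times 80. The median relative log2 ratio of the 80 genes, 2.34, stayed between 2.01 and 2.63 under every alternative that kept those genes, and between 2.20 and 2.50 when 1 oocyte was left out. The number of genes with separate ranges in CPM, 16, was 1 with the feature kept in the totals (Ruvbl2), 42 with GV7 to GV9 alone, 30 without GV4 and MII5 (an alternative chosen after seeing the data) and 16 to 24 when 1 oocyte was left out. For 28 named genes under 34 alternatives, none of 952 ratios changed sign. The rule all but fixes this, because it chose genes with a relative log2 ratio of at least 2. Of the 952 ratios, 943 stayed within the gene's spread, a loose limit where the spread is wide, as for Spast at 2.65. The 9 that moved further were 5 for Spast (0.34 to 0.56, all without MII5 or with medians) and, with GV7 to GV9 alone, those of Rln3 (6.17), Rapsn (5.44), Mpped1 (3.69) and Taf8 (3.56). The cause was not tested. Fewer counts per MII oocyte limit the precision of the genes near 20 CPM, such as Gstp2 with 133 counts over all MII oocytes.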
